A study of Mus musculus with 20 samples.

Results

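The paternally expressed genes *Snrpn*, *Snurf*, *Ndn*, *Magel2*, *Mkrn3* and *Peg12* lie beside *Ube3a* on mouse chromosome 7, and were taken as the rows of the count files with these gene symbols, 6 of 47729 genes. Their read counts were measured by stranded mRNA sequencing in hippocampus and cortex of C57Bl/6J mice at postnatal day 7 (P7). The WT group had 5 mice, numbered 1 to 5, and carried no transgene. The Ube3aOE group had 5 mice, numbered 6 to 10, here called *Ube3a+2*, which carry 2 additional copies of *Ube3a* with flanking sequence on a bacterial artificial chromosome (BAC), next to their own *Ube3a* alleles. The BAC construct is floxed and starts from *Ube3a* and its surroundings only, so the 6 genes have no additional copy in these mice. The study's further characterization used 1 of its transgenic lines, and the labels do not say which line gave these libraries. Each mouse gave 1 library per tissue, so the 20 libraries come from 10 mice.

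In mammals, some genes are used from the copy of 1 parent alone, a pattern called genomic imprinting. On mouse chromosome 7, a control element at the start of *Snrpn* is methylated on the maternal chromosome, and the genes described here are read from the paternal one. A long non-coding transcript that starts in the same place, *Snhg14*, runs towards *Ube3a* in the antisense direction and silences the paternal copy of *Ube3a* in neurons. In the human counterpart of this interval, loss of the paternally expressed genes causes Prader-Willi syndrome, and loss of maternal *UBE3A* causes Angelman syndrome. The comparison of genotypes addresses whether additional *Ube3a* is accompanied by other levels of its imprinted neighbours, and the comparison of regions how these genes are used in both tissues.

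The counts on genes ranged from 14191093 to 16752326 per library, and are given below as CPM, the counts on a gene per 1000000 counts of the library, scaled by edgeR's TMM factors. *Ube3a* itself, the targeted gene, had 57.1 to 76.8 CPM in WT and 142 to 195 CPM in *Ube3a+2* hippocampus, and 54.4 to 70.0 against 130 to 182 CPM in cortex, so every library matched its labelled genotype. WT mouse 3, labelled male, had 3991 counts of *Xist* and 0 of 4 Y-linked genes in cortex, while WT mouse 5, labelled female, had 1 and 1749, and their hippocampus libraries had the same pattern. Both are WT mice, and sex enters no comparison. Summed hippocampus markers were 325 to 537 CPM in hippocampus and 72.6 to 179 CPM in cortex, the highest cortex values being those of *Ube3a+2* mice 8 and 9 (172 and 179 CPM). Summed cortex markers were 1751 to 2613 CPM in cortex and 315 to 1121 CPM in hippocampus, with the highest hippocampus value in WT mouse 2. In 4 hippocampus libraries, summed markers of thalamus, choroid plexus, striatum or cholinergic neurons exceeded 3 times the median of the 10 libraries: WT mouse 4 and *Ube3a+2* mice 7, 9 and 10. The fold changes and the spread of the members in hippocampus are also given without them. In tissue samples, fewer cells of a type and less RNA per cell cannot be told apart.

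The *Snurf* row was at 0 counts in all 20 libraries. *Snurf* encodes a small protein from the first exons of the *Snurf*-*Snrpn* transcript, so 1 messenger RNA carries 2 reading frames, that of *Snurf* followed by that of *Snrpn*. In the annotation (GENCODE M21, build GRCm38), the *Snurf* transcript spans chr7:59995449-60005049 on the minus strand and has 216 bases in 3 exons of 14, 96 and 106 bases, all coding. It begins at position 63 of the *Snrpn* transcript of 1932 bases and at position 16 of that of *Gm38393*, another gene on the strand. Its sequence, 5′ to 3′, is shown because every base of it is also annotated in other genes, with exon 2 in capitals:
Snurf: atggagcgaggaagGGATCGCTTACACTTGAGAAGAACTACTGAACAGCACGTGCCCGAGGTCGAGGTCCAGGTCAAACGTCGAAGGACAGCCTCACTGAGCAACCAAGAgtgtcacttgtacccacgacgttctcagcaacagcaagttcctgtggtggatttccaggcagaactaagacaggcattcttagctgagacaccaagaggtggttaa

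All 216 exonic bases of *Snurf* also belong to *Snrpn* and *Gm38393*, and each of its 167 stretches of 50 bases occurs in transcripts of other genes. A read within this sequence therefore overlaps more than 1 gene of the annotation. Reads over more than 1 gene made up 0.756% to 0.879% of a library and were not counted on a gene. A count of 0 was given a limit of 3 counts, or 0.179 to 0.211 CPM depending on the library, for reads assigned to *Snurf* alone. With no base of its own in this annotation, neither the 0 nor this limit says anything about the level of its sequence. The same rule leaves *Snrpn* 1570 of its 2159 exonic bases to be counted on if reads were counted by strand, and 1422 if they were not. *Gm38393*, which has 4463 of 5216 bases of its own, was counted in all 20 libraries, with means ± SD of 8.32 ± 1.52 CPM in cortex and 8.01 ± 1.59 CPM in hippocampus (n = 10 each).

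**Figure D1:**
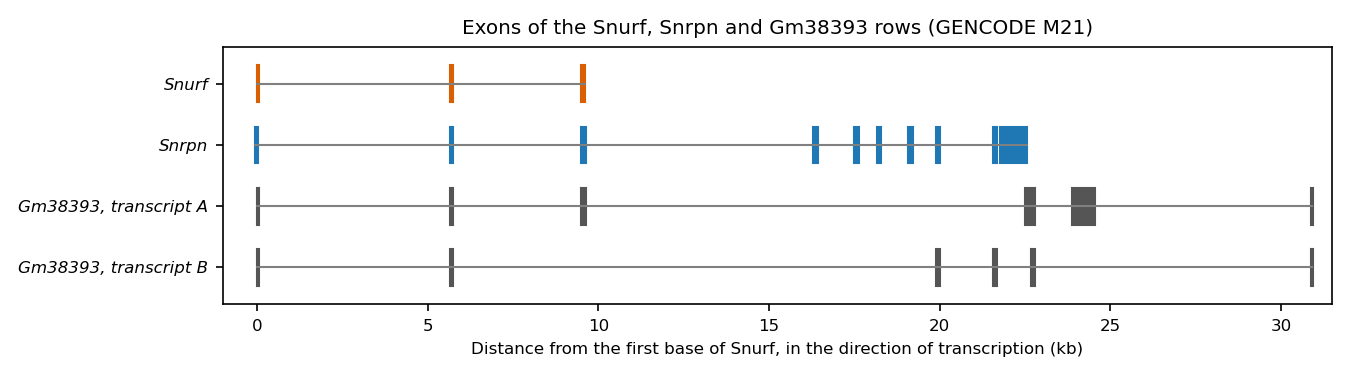
Exons (boxes) of *Snurf*, of the main *Snrpn* transcript and of 2 transcripts of *Gm38393*, against the distance from the first base of *Snurf* in the direction of transcription (kb); the smallest exons are drawn slightly wider than to scale. Each of the 3 *Snurf* exons lies under an exon of *Snrpn* and of a *Gm38393* transcript, and *Snrpn* has 7 further exons downstream.

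The other members stand apart from their neighbours. *Ndn* (chr7:62346569-62350262, plus strand) and *Magel2* (chr7:62377010-62381640, plus strand) have 3694 and 4631 exonic bases, and *Mkrn3* (chr7:62417593-62420139) and *Peg12* (chr7:62461871-62464510), both on the minus strand, have 2547 and 2640. None of these bases belongs to another gene, and none of their stretches of 50 bases occurs in a transcript of another gene. For *Snrpn* (chr7:59982495-60140219, minus strand), 21.7% of such stretches did, in *Snurf*, *Gm38393*, *Gm35595* and *Gm5802*. Between the start of *Ube3a* and the end of *Peg12*, 36 of 267 annotated genes had a count in any library. Most of the rows without a count are short snoRNA or miRNA genes, many of 79 or 94 bases. Their 0 counts in these mRNA libraries do not show that the sequence is silent.

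RefSeq's windows around gene starts (250 bases before to 50 after, build GRCm38.p6) held 4 starts for *Snrpn*, 1 of them shared with *Snurf*, and 1 for each of the other members. The letters CGCATGCG, the core of the sequence that the transcription factor NRF1 is known to bind, were searched after the windows had been seen. They read the same on both strands. They occurred once in every window of *Snrpn* and *Snurf* and in that of *Ndn*, and in 615 of all 32851 windows (1.87%). The windows of *Magel2*, *Mkrn3* and *Peg12* did not hold these letters. Since the letters were picked from these windows, the share over all windows is no test of the members. Several *Snrpn* windows also hold nearly the same bases around the match, so their matches are not independent. The 30 bases around each match are shown because they are a feature shared by some members that the choice of genes did not use, with the match in capitals:
Snrpn, chr7:60450222-60450251, minus strand: gcaaacatccaCGCATGCGtgattggaagg
Snrpn, chr7:60140285-60140314, minus strand: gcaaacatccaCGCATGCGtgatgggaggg
Snrpn, chr7:60048031-60048060, minus strand: gcaaacatgcaCGCATGCGtcgttgaaggt
Snrpn and Snurf, chr7:60005150-60005179, minus strand: cagccattgcctgggaCGCATGCGtaggga
Ndn, chr7:62348243-62348272, plus strand: gcttcccaacaCGCATGCGcaatatcgcat

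The matches began 63, 78 and 71 bases before the 3 far starts of *Snrpn*, 37 bases after its main start and 23 bases before that of *Ndn*. The windows of the far *Snrpn* starts held 2, 3 and 4 CpG pairs, against a median of 7 over all windows, and those of *Ndn*, *Magel2*, *Mkrn3* and *Peg12* held 11, 10, 15 and 12. These are matches of letters, and no measurement here bears on binding. *Snrpn* has 1 row in the counts, so the shares of its starts cannot be told apart. In GENCODE, its transcripts begin at 60005111 and 60140219. In that annotation, first exons of the far starts beside chr7:60450222 and chr7:60048031 are therefore not part of this row. The authors' counting may have used another annotation.

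The members differed widely in level. Divided by the kb of exon that only this gene holds on its strand, *Snrpn* had 338 ± 23.2 CPM per kb in cortex and 314 ± 12.2 in hippocampus (mean ± SD, n = 10 mice). *Ndn* followed with 86.2 ± 8.58 and 86.5 ± 9.15 CPM per kb, then *Mkrn3* with 8.32 ± 1.33 and 10.0 ± 1.09. *Magel2* had 2.13 ± 0.294 and 2.49 ± 1.06 CPM per kb, and *Peg12* 0.569 ± 0.165 and 0.936 ± 0.130. In this order no 2 neighbours overlapped within a tissue: the lowest *Magel2* library in hippocampus had 1.41 CPM per kb and the highest *Peg12* library 1.15. RefSeq places the start of *Ndn* inside the GENCODE span, so its length, and with it its level per kb, depends on the annotation. *Snhg14* had 1.29 ± 0.148 CPM per kb in cortex and 1.05 ± 0.154 in hippocampus. *Snrpn* was counted on 7012 to 9158 reads per library and *Peg12* on 10 to 53, so that counting error weighs most on *Peg12*.

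The spread between mice differed as well. In hippocampus, the coefficient of variation of the CPM over 10 mice was 3.89% for *Snrpn*, 10.6% for *Ndn*, 10.8% for *Mkrn3*, 13.9% for *Peg12* and 42.7% for *Magel2*. In cortex it was 6.84%, 9.95%, 15.9%, 29.0% and 13.8%. The coefficients of variation here pool both genotypes, so a difference between their means adds to them. Within the genotypes, that of *Magel2* in hippocampus was 24.1% in WT and 34.6% in *Ube3a+2* mice. Without the 4 hippocampus libraries with markers of other tissue, which hold the highest *Magel2* values, that of *Magel2* over both genotypes was 20.3%. Those of *Snrpn*, *Ndn*, *Mkrn3* and *Peg12* were 4.23%, 9.42%, 9.20% and 4.42% (n = 6 mice). With 32 to 53 counts of *Peg12* per hippocampus library, counting error alone can exceed its value. In edgeR's fit of the hippocampus genotypes, the biological variation of *Magel2* between mice stood at percentile 91.8 of all genes tested, and at 73.5 without these libraries, and that of *Snrpn* at percentile 0.710 and 0.671.

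Between WT and *Ube3a+2* mice, 0 of the 5 members tested passed an adjusted *P* value of 0.05 in hippocampus, and 0 of 5 in cortex (edgeR's quasi-likelihood F test, Benjamini-Hochberg adjustment over all genes). *Snurf* was not tested. Of all genes, 1 of 15220 passed in hippocampus (0.00657%) and 1 of 14947 in cortex (0.00669%), in both tissues *Ube3a*. At an unadjusted *P* value under 0.05, the members held 1 of 5 in hippocampus, *Magel2*, where all genes had 7.21%, and 1 of 5 in cortex, *Peg12*, where all genes had 4.44%. DESeq2 also called 0 members in both tissues.

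*Snrpn*, which encodes the Sm core protein SmN that replaces SmB in spliceosomal particles of the brain, had 496, 515, 503, 504 and 487 CPM in hippocampus of WT mice 1 to 5 and 455, 474, 481, 489 and 518 CPM in *Ube3a+2* mice 6 to 10. The groups overlapped, and 1 of 5 *Ube3a+2* mice lay above the WT median. *Snrpn* had a log2 fold change (*Ube3a+2* over WT) of -0.05 (SE 0.05, 95% CI -0.16 to 0.05, adjusted *P* = 0.769). In cortex, the values were 556, 524, 533, 576 and 556 CPM against 526, 471, 494, 497 and 580 CPM. Here too 1 of 5 *Ube3a+2* mice lay above the WT median, namely mouse 10, the highest of all. In this tissue the log2 fold change was -0.09 (SE 0.06, 95% CI -0.22 to 0.03, adjusted *P* = 0.960). Both intervals excluded a difference of 0.5 on the log2 scale, the border that the study used.

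*Ndn* encodes necdin, a MAGE family protein of postmitotic neurons. Its hippocampus values were 269, 349, 287, 328 and 318 CPM in WT and 311, 278, 334, 375 and 346 CPM in *Ube3a+2* mice. The groups overlapped over most of their range, and the log2 fold change was 0.08 (SE 0.09, 95% CI -0.11 to 0.27, adjusted *P* = 0.805). In cortex, WT mice had 259, 356, 306, 316 and 335 CPM and *Ube3a+2* mice 337, 308, 358, 330 and 279 CPM. The lowest library was WT mouse 1 in both tissues, and 3 of 5 *Ube3a+2* mice lay above the WT median in each tissue. In cortex the log2 fold change was 0.04 (SE 0.08, 95% CI -0.14 to 0.22, adjusted *P* = 0.988), and both intervals excluded 0.5.

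*Magel2* encodes another MAGE protein, which acts with the ubiquitin ligase TRIM27 and the WASH complex in protein recycling from endosomes and is best known from the hypothalamus. In hippocampus it had 9.96, 7.57, 6.84, 11.1 and 6.52 CPM in WT mice and 8.40, 15.3, 10.7, 19.0 and 20.0 CPM in *Ube3a+2* mice. All 5 *Ube3a+2* mice lay above the WT median, 3 of them (mice 7, 9 and 10) above every WT mouse, while mice 6 and 8 lay within the WT range. The means ± SD were 8.40 ± 2.02 and 14.7 ± 5.08 CPM (n = 5 each), so the *Ube3a+2* mean was 175% of WT (two-sided exact permutation test, *P* = 0.0397, where 0.00794 is the smallest *P* value that 5 against 5 mice allow). Over all genes the difference did not pass: the log2 fold change was 0.80 (SE 0.25, 95% CI 0.26 to 1.34, adjusted *P* = 0.668), and *Magel2* stood at rank 130 of 15220 by *P* value.

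The 4 highest *Magel2* values in hippocampus, 20.0, 19.0, 15.3 and 11.1 CPM, were those of the 4 libraries with markers of other tissue, in *Ube3a+2* mice 10, 9 and 7 and WT mouse 4. In mouse 10, the summed thalamus markers were 910 CPM, 10.5 times the median of the hippocampus libraries. Mouse 9 had 482 CPM of striatum markers (10.8 times), 344 CPM of choroid plexus markers (23.9 times) and 46.3 CPM of cholinergic markers (4.31 times). Mouse 7 had 1943 CPM of choroid plexus markers (135 times) and 463 CPM of thalamus markers (5.36 times), and WT mouse 4 had 407 CPM of thalamus markers (4.72 times). Of these, *Ube3a+2* mice held 3 and WT mice 1. Without the 4 libraries, 4 WT and 2 *Ube3a+2* libraries remained, and the log2 fold change of *Magel2* was 0.30 (SE 0.20, 95% CI -0.15 to 0.75, adjusted *P* = 0.999). The libraries kept lay under the limit but were not free of such markers. *Ube3a+2* mouse 8, with 10.7 CPM of *Magel2*, had 150 CPM of thalamus markers (1.74 times the median). WT mice 2 and 3 had 2.22 and 2.13 times the median of choroid plexus markers. Summed markers of hypothalamus, where *Magel2* is prominent, were 0.959 to 5.15 CPM in the hippocampus libraries, with the highest value in mouse 9, and 3 to 6 of the 8 genes were at 0. The part of these tissues in the *Magel2* values was not tested.

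In cortex, *Magel2* had 10.3, 7.70, 11.5, 10.1 and 9.46 CPM in WT and 8.13, 8.60, 11.3, 11.2 and 10.6 CPM in *Ube3a+2* mice. These groups overlapped almost fully, with a log2 fold change of 0.02 (SE 0.13, 95% CI -0.26 to 0.30, adjusted *P* = 0.993).

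**Figure D2:**
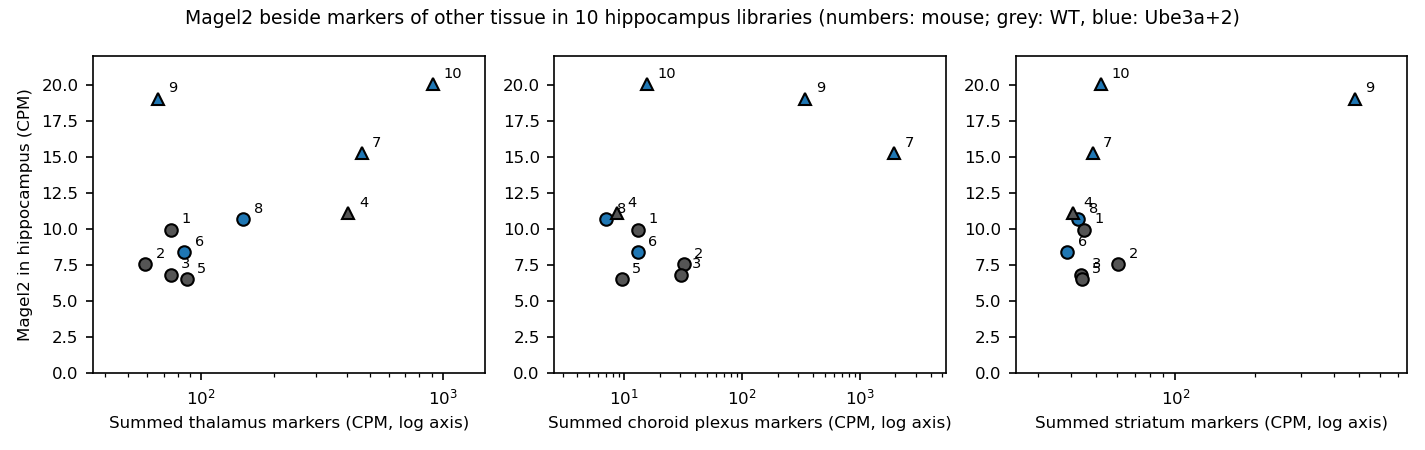
*Magel2* (CPM, vertical axis) in the 10 hippocampus libraries against the summed CPM of markers of thalamus, choroid plexus and striatum (horizontal log axes); points carry the mouse number, grey is WT, blue is *Ube3a+2*, and triangles are the 4 libraries over 3 times the median in any of the lists. The 4 triangles hold the 4 highest *Magel2* values, from 11.1 to 20.0 CPM, but no single marker list puts all 4 apart from the circles.

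*Mkrn3* encodes a makorin RING finger protein known as a brake on the onset of puberty. Its hippocampus values were 28.9, 24.7, 23.2, 26.0 and 24.9 CPM in WT and 25.6, 22.0, 22.3, 30.1 and 28.2 CPM in *Ube3a+2* mice. The means were nearly the same (25.5 ± 2.13 and 25.6 ± 3.57 CPM), with a 95% CI of the log2 fold change from -0.21 to 0.22 (adjusted *P* = 0.995). In cortex, the values were 17.9, 21.1, 21.05, 20.6 and 20.3 CPM in WT and 22.0, 16.5, 26.1, 27.4 and 18.8 CPM in *Ube3a+2* mice. The *Ube3a+2* cortex libraries spread on both sides of WT, the 2 highest being mice 8 and 9, which also had the highest hippocampus markers of any cortex library. This gave a log2 fold change of 0.14 (SE 0.13, 95% CI -0.13 to 0.41, adjusted *P* = 0.961), and it was 0.05 to 0.23 with each mouse left out, namely 0.05 without mouse 9, 0.07 without mouse 8, 0.19 without mouse 10 and 0.23 without mouse 7. The part of hippocampus tissue in these values was not tested.

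*Peg12*, also called *Frat3*, belongs to the FRAT family, whose proteins bind the kinase GSK-3 of the Wnt pathway. In hippocampus it had 2.34, 2.28, 2.53, 3.05 and 2.48 CPM in WT and 2.38, 3.02, 2.54, 2.06 and 2.04 CPM in *Ube3a+2* mice. The groups overlapped, with a log2 fold change of -0.08 (SE 0.17, 95% CI -0.44 to 0.29, adjusted *P* = 0.909). In cortex, WT mice had 1.02, 0.748, 1.62, 1.47 and 1.31 CPM and *Ube3a+2* mice 1.78, 1.81, 1.73, 2.26 and 1.27 CPM. Here 4 of 5 *Ube3a+2* mice lay above every WT mouse, and mouse 10 lay within the WT range. On average, the *Ube3a+2* mean was 143% of WT (1.77 ± 0.352 against 1.23 ± 0.351 CPM, two-sided exact permutation test, *P* = 0.0556). The log2 fold change was 0.51 (SE 0.23, 95% CI 0.01 to 1.01), and the adjusted *P* value over all genes was 0.960. Of the 5 hippocampus markers, 4 had a log2 fold change above 0 in *Ube3a+2* cortex (median 0.42, against 0.00328 over all genes). The highest *Peg12* value, that of mouse 9, came from the cortex library with the most hippocampus markers, and without this mouse the log2 fold change was 0.40. Mice 6 and 7, with 1.78 and 1.81 CPM of *Peg12*, had 82.8 and 83.6 CPM of these markers. WT cortex libraries had 72.6 to 102 CPM of them. Mouse 8, with 1.73 CPM of *Peg12*, had 172 CPM, and mouse 10, with 1.27 CPM, had 110 CPM. The part of hippocampus tissue in the *Peg12* values was not tested either.

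**Figure D3:**
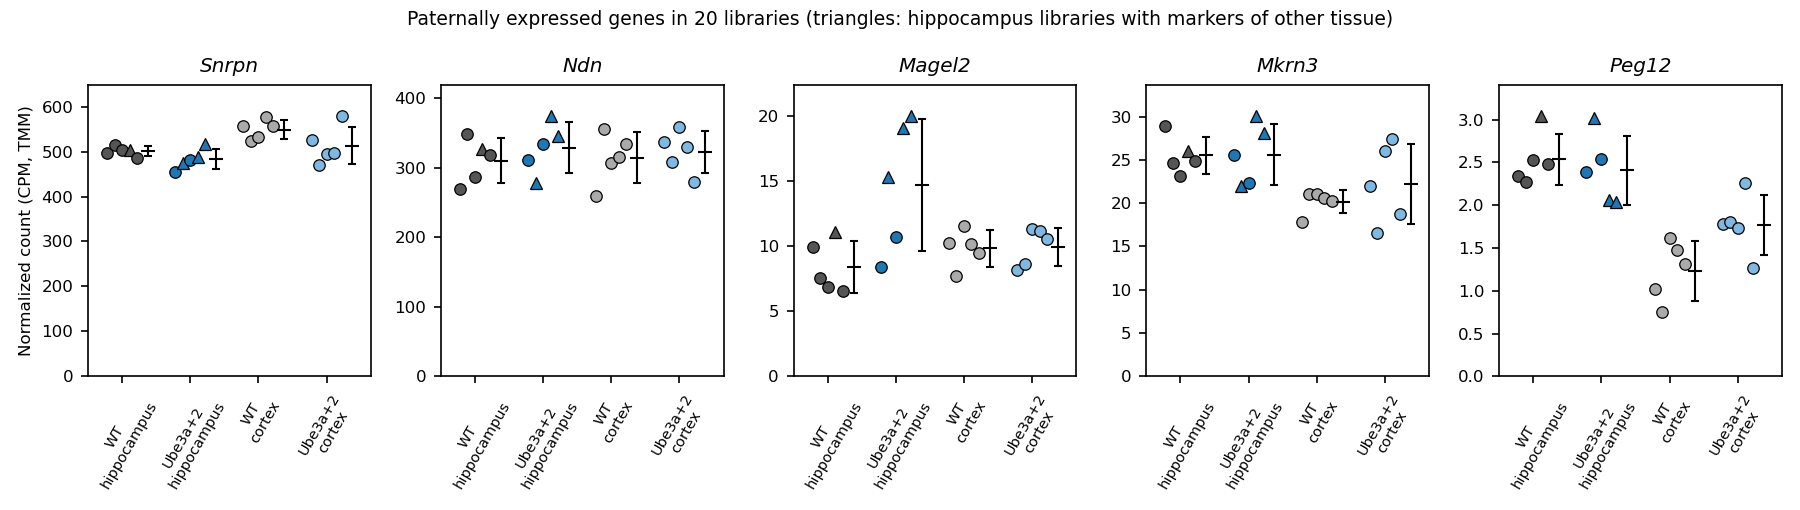
CPM of the 5 counted members (vertical axes from 0) in each of the 20 libraries, by genotype and tissue; points are mice in the order of their numbers, triangles the 4 hippocampus libraries with markers of other tissue, and bars the mean ± SD of 5 mice. Within each tissue, WT and *Ube3a+2* mice overlap in every panel. *Magel2* reaches 20.0 CPM in *Ube3a+2* hippocampus only through triangles, and *Peg12* lies higher in hippocampus than in cortex.

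Whether the genotype difference differed between the tissues was tested as an interaction over all 20 libraries. No member and no gene of 15661 passed the adjusted threshold (0 called, 0%), and DESeq2 called 0 members as well. At an unadjusted *P* value under 0.05, 2 of the 5 members passed, against 3.77% of all genes. *Magel2* had a difference of 0.79 on the log2 scale between its hippocampus and cortex fold changes (SE 0.29, 95% CI 0.18 to 1.39, adjusted *P* = 0.997). It was 0.29 without the 4 libraries with markers of other tissue. *Peg12* had the opposite sign, with -0.58 (SE 0.28, 95% CI -1.16 to -0.01, adjusted *P* = 0.997). 

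Between the tissues, 3 of the 5 members tested passed the adjusted threshold over all 20 libraries. *Mkrn3* and *Peg12* were higher in hippocampus, where 3963 of 15661 genes were called higher (25.3%), and *Snrpn* was lower in hippocampus, where 4010 genes were called lower (25.6%). The 3 of 5 members called stand beside 50.9% of all genes, so that a difference between these tissues was common. *Ndn* and *Magel2* did not pass.

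*Peg12* differed most. Its hippocampus libraries had 2.04 to 3.05 CPM (median 2.43) and its cortex libraries 0.748 to 2.26 CPM (median 1.55). Of 10 mice, 9 had more in hippocampus, and the exception, *Ube3a+2* mouse 9, had the 1 cortex value (2.26 CPM) within the hippocampus range. The log2 fold change (hippocampus over cortex) was 0.74 (SE 0.14, 95% CI 0.45 to 1.02, adjusted *P* = 0.000143), a fold change of 1.66. Within mice, the mean difference was 0.77 ± 0.471 on the log2 scale (two-sided exact sign-swap permutation test, *P* = 0.00391). Without the 4 hippocampus libraries with markers of other tissue, the log2 fold change was 0.72 (adjusted *P* = 0.00151).

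*Mkrn3* had 22.0 to 30.1 CPM in hippocampus (median 25.2) and 16.5 to 27.4 CPM in cortex (median 20.8). It was higher in hippocampus in 9 of 10 mice, all but *Ube3a+2* mouse 8. Its log2 fold change was 0.27 (SE 0.08, 95% CI 0.10 to 0.45, adjusted *P* = 0.00942), and the difference within mice was 0.28 ± 0.256 (exact sign-swap permutation test, *P* = 0.0117). Without the 4 hippocampus libraries with markers of other tissue it was 0.23, and it then missed the threshold (adjusted *P* = 0.0699).

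*Snrpn* had 455 to 518 CPM in hippocampus (median 493) and 471 to 580 CPM in cortex (median 529). It was lower in hippocampus in 9 of 10 mice, though by little, a fold change of 0.927. The log2 fold change was -0.11 (SE 0.04, 95% CI -0.19 to -0.03, adjusted *P* = 0.0170), and within mice -0.11 ± 0.0847 (exact sign-swap permutation test, *P* = 0.00391). Without the 4 libraries with markers of other tissue it was -0.13 (adjusted *P* = 0.0304). The call rested on the scaling: with library totals and no TMM factors the log2 fold change was -0.05 (adjusted *P* = 0.267), and the median over all genes moved from -0.01 to 0.05. With fewer libraries and nearly the same fold change it also missed the threshold, at -0.10 without WT mouse 1 (adjusted *P* = 0.0607), -0.09 without *Ube3a+2* mouse 6 (adjusted *P* = 0.0551), and -0.10 without the 2 mice whose counts go against the labelled sex (adjusted *P* = 0.104). With each mouse left out, the log2 fold change ranged from -0.12 to -0.09.

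*Ndn* had 269 to 375 CPM in hippocampus and 259 to 358 CPM in cortex, and was higher in hippocampus in 4 of 10 mice. Its log2 fold change was 0.00459 (95% CI -0.13 to 0.14, adjusted *P* = 0.960). *Magel2* had 6.52 to 20.0 CPM in hippocampus and 7.70 to 11.5 CPM in cortex, and 5 of 10 mice were higher in each. Its log2 fold change was 0.17 (SE 0.14, 95% CI -0.13 to 0.47, adjusted *P* = 0.354), and -0.20 without the 4 libraries with markers of other tissue (adjusted *P* = 0.191), so its sign depended on them.

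**Figure D4:**
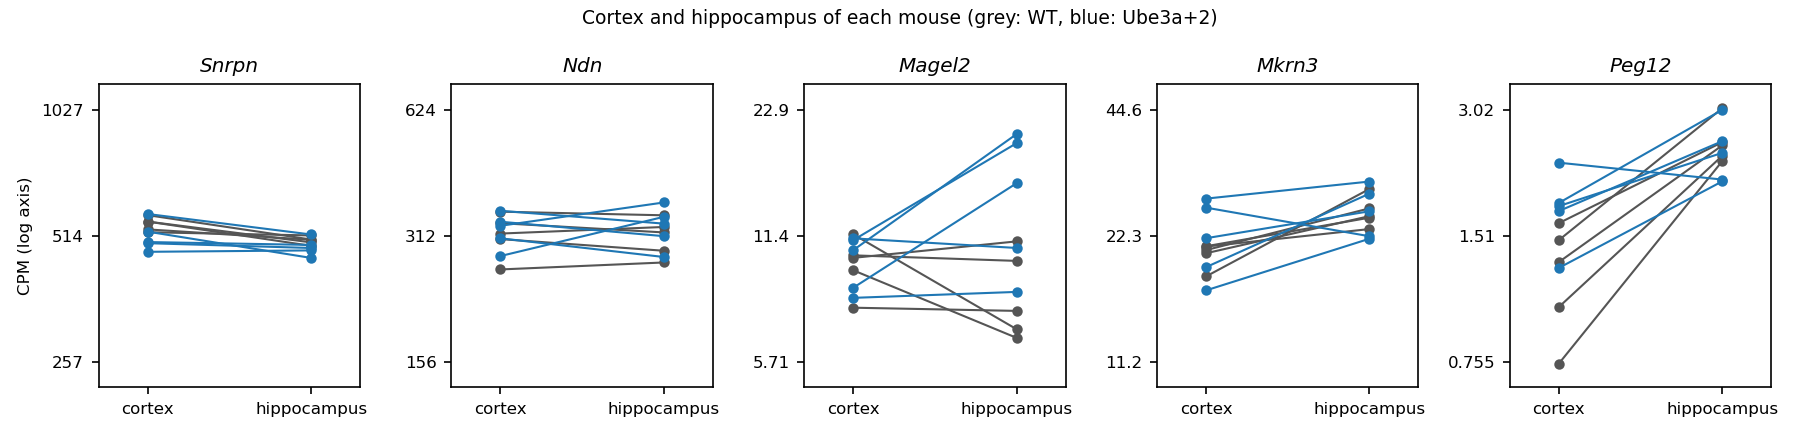
CPM in cortex and hippocampus of each mouse (vertical log axes of equal span), for the 5 counted members; lines join the 2 libraries of a mouse, grey is WT and blue *Ube3a+2*. *Peg12* and *Mkrn3* rise towards hippocampus in 9 of 10 mice, *Snrpn* is nearly flat, and the lines of *Magel2* run in both directions.

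**Figure D5:**
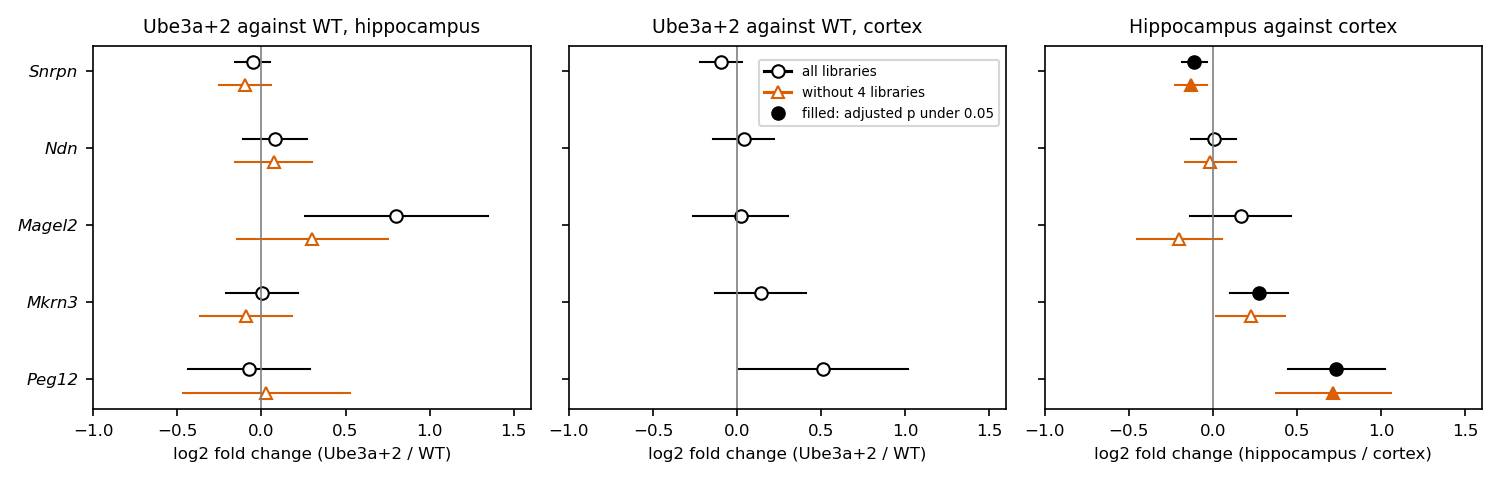
Log2 fold changes (points) with 95% confidence intervals (lines) from edgeR for the genotypes in each tissue and for the regions; black circles are all libraries, orange triangles the fits without the 4 hippocampus libraries with markers of other tissue, and filled symbols passed an adjusted *P* value of 0.05. In the genotype panels no symbol is filled, and *Magel2* in hippocampus goes from 0.80 to 0.30 without the 4 libraries.

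Because each mouse gave both tissues, the levels of a member in hippocampus and in cortex could be compared over 10 mice. On the log2 scale, Pearson's r was 0.529 for *Snrpn* (Spearman's rho 0.600), 0.523 for *Ndn* (0.479), 0.282 for *Magel2* (0.212), 0.129 for *Mkrn3* (0.0909) and 0.166 for *Peg12* (0.297). No relation passed (permutation tests of 5 relations, lowest adjusted *P* = 0.302 for r and 0.367 for rho). Without the 2 mice farthest from the median, r was 0.603 for *Snrpn* and 0.127 for *Ndn*, and -0.02 for *Magel2*, -0.868 for *Mkrn3* and -0.00949 for *Peg12*. The value of *Mkrn3* turned on which mice were left out: mice 7 and 9 on the log2 scale, while on the CPM scale, where these were mice 1 and 9, r was -0.196. Genotypes were pooled, and 5 mice per genotype are too few for values within each.

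The genes whose log2 CPM ran most like that of a member over the 20 libraries are named by Pearson's r, as a description, since tissue, mouse and scaling are shared by all of them. For *Snrpn* they were *Oxct1* (0.884), *Spcs3* (0.853) and *Idh3a* (0.853), and for *Ndn* *Wrb* (0.775), *Zfp467* (0.769) and *Siae* (0.765). *Magel2* ran most like *Ehd4* (0.901), *Vwc2* (0.877) and *Card10* (0.877). *Mkrn3* ran most like *Susd4* (0.883), *Wfs1* (0.873), a gene of the hippocampus markers used here, and *Gpr83* (0.866). For *Peg12* they were *Insc* (0.913), *Pclaf* (0.902) and *Tent5a* (0.895). None of these genes is a member. Within hippocampus alone, r in the same order was 0.577, 0.373 and 0.316 for *Snrpn*, and 0.844, 0.788 and 0.873 for *Ndn*. It was 0.915, 0.911 and 0.934 for *Magel2*, 0.544, 0.725 and 0.700 for *Mkrn3*, and 0.580, 0.634 and 0.822 for *Peg12*. Within cortex alone, r was 0.691 to 0.942 over all of these genes.

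Relatives and partners of the members were followed in lists. Between genotypes, 0 genes of any of them passed in either tissue. Of the listed Sm core genes, which are *Snrpb* for the SmB that SmN replaces and those of the proteins that share a ring with either, 7 of 7 had a log2 fold change below 0 in *Ube3a+2* hippocampus (median -0.17, against 0.00227 over all genes). In the same comparison, the markers of choroid plexus, striatum and thalamus had medians of 2.49, 1.80 and 1.20. Without the 4 libraries with markers of other tissue, 6 of 7 Sm core genes were below 0 (median -0.13), and the part of these tissues was not tested. Over all libraries, the smallest unadjusted *P* value was that of *Snrpg* (-0.30, adjusted *P* = 0.668). In cortex, 2 of 7 were above 0 (median -0.04). Of the other MAGE genes, *Magee1* had 0.17 in hippocampus and 0.16 in cortex (adjusted *P* = 0.668 and 0.960), and of the 10 partners of MAGEL2 the smallest unadjusted *P* value in hippocampus was that of *Vps29* (-0.14, adjusted *P* = 0.668). Among the makorins and the FRAT and GSK-3 genes these were *Mkrn2* (-0.08, adjusted *P* = 0.742) and *Frat2* (-0.25, adjusted *P* = 0.693).

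Between regions, where 25.3% of all genes were called higher in hippocampus and 25.6% lower, the counts of the lists are read beside these shares. Here 4 of 7 Sm core genes were lower in hippocampus, as *Snrpn* was: *Snrpd3* (-0.30), *Snrpd2* (-0.25), *Snrpb* (-0.24) and *Snrpd1* (-0.18). The list had a median of -0.18, against -0.01 over all genes, and 3 of 7 passed without TMM factors. Of the MAGE genes, 3 of 6 were higher in hippocampus, *Nsmce3* (0.46), *Maged1* (0.16) and *Magee1* (0.14), with a median of 0.14, and 5 passed without TMM factors. Of the MAGEL2 partners, 3 of 10 were lower, the retromer subunit gene *Vps26a* (-0.18), the deubiquitinase gene *Usp7* (-0.13) and *Washc1* of the WASH complex (-0.12), with a list median of -0.05 that was 0.01 without TMM factors, where 1 passed. Both paralogs of *Mkrn3*, *Mkrn1* (-0.14) and *Mkrn2* (-0.10), were lower in hippocampus, whereas *Mkrn3* was higher, and 1 of them passed without TMM factors and 1 with DESeq2. Of the FRAT and GSK-3 genes, 1 of 4 was higher, *Frat2* (0.40), a paralog of *Peg12*, and 1 was lower, the kinase gene *Gsk3a* (-0.23). *Frat1*, the other paralog, had -0.03 (adjusted *P* = 0.920).

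The other rows of the interval between *Ube3a* and *Peg12* showed no genotype difference past the threshold. *Snhg14*, which runs from *Snrpn* towards *Ube3a*, had 26.9 ± 5.02 CPM in WT and 27.7 ± 3.18 CPM in *Ube3a+2* hippocampus, and 33.2 ± 4.06 and 33.3 ± 4.08 CPM in cortex (n = 5 each), with log2 fold changes of 0.04 and 0.01 (adjusted *P* = 0.928 and 1.00). The smallest unadjusted *P* value in hippocampus was that of *9330162G02Rik*, annotated over the start of *Ube3a* on the opposite strand, with log2 fold changes of 0.65 in hippocampus (unadjusted *P* = 0.000603, adjusted *P* = 0.668) and 0.39 in cortex (unadjusted *P* = 0.0300, adjusted *P* = 0.960) in edgeR's test. The strand setting of the counting is not given in the sources used here, so reads of this row, or of *Snhg14*, and of *Ube3a* cannot be told apart where they overlap. The paper describes a BAC clone that holds *Ube3a* with long flanking sequence on both sides. *9330162G02Rik*, and the end of *Snhg14* over *Ube3a*, can therefore have additional copies in *Ube3a+2* mice. The part of such copies in these values was not tested. In cortex, the smallest unadjusted *P* value was that of *A330076H08Rik*, which lies between *Snrpn* and *Ndn*. It had -0.51 in hippocampus and -0.68 in cortex (adjusted *P* = 0.668 and 0.960). Between regions, 5 of the 10 other tested rows of the interval were lower in hippocampus and 0 higher, with a median of -0.34 against -0.01 over all genes, where 25.6% of all genes were lower. Without TMM factors, and with DESeq2, 4 of 10 were. *A230103L15Rik* (-0.86), *A230057D06Rik* (-0.70), *B230209E15Rik* (-0.58), *A330076H08Rik* (-0.44) and *Snhg14* (-0.29, adjusted *P* = 0.00649) passed. *Snhg14* was thus lower in hippocampus, as *Snrpn* was, while *Mkrn3* and *Peg12* at the far end of the interval were higher there. The calls of *Snrpn* and *Mkrn3* depended on the settings given above. *Gm38393*, which overlaps *Snhg14* and *Snrpn*, had -0.06 in edgeR's test (adjusted *P* = 0.714). *Ndn* and *Magel2*, beside *Mkrn3*, did not pass.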

How the data were processed

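RNA from hippocampus and cortex of P7 mice was made into TruSeq stranded mRNA libraries, 1 per mouse and tissue (5 WT and 5 *Ube3a+2* mice, 20 libraries). The authors deposited read counts per gene without normalization. Their processing notes name HISAT2 2.1.0, HTSeq 0.11.2 and the build GRCm38, and the settings are not given in the sources used here. Of 47729 gene identifiers, 47310 are in GENCODE M21, which gave positions and transcripts. On genes were counted 69.7% to 81.2% of the reads, while ambiguous reads and those with several alignments (10.3% to 13.7%) were not counted on genes by the authors and enter no library size.

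Counts were analysed with edgeR 4.0.16 in R 4.3.3 (TMM, filterByExpr, robust quasi-likelihood F test, two-sided, Benjamini-Hochberg over all genes tested). Genotypes were fitted within each tissue, and regions and the interaction over all 20 libraries. Standard errors and 95% CIs came from the F statistic. Single members were compared by exact permutation tests, whose *P* values are not adjusted over the members. Agreement between tissues was tested by permutation tests of 100000 resamples (scipy 1.17.1). Log2 CPM for likeness used a prior count of 2, and the 3 genes with the highest r are named. From each list, the genes past the threshold are named (the 2 largest on each side where more than 4 passed), or the gene with the smallest *P* value where none did, and any others were chosen after their values were seen. The fit was tested on simulated data.

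Labels number the mice, so libraries of 1 number come from 1 animal. Their deviations from the group means correlated across genes with a median of 0.215 (-0.0367 to 0.248, above 0.1 in 9 of 10 mice). No sequencing batch is given. The members and lists were chosen with earlier results of these data known. Alternatives were DESeq2 1.42.0, no TMM factors, no filter on low counts, all 20 libraries in 1 fit, the mouse as a replicate block (edgeR, or limma 3.58.1), and each mouse left out in turn. The 4 hippocampus libraries with markers of other tissue, and the 2 mice at odds with their labelled sex, were left out as alternatives chosen after seeing the data.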

Additional observations from a re-analysis of the deposited data

Results flagged for a closer look

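*Mkrn3* in WT cortex stood out for 1 library: WT mouse 1 had 17.9 CPM while the other 4 WT mice had 20.3 to 21.1 CPM, a gap of 0.753 of the range of the group. The other members had no library that stood out by the same measure. In 20 groups searched, chance gives about 1 such library, and 1 was found. In hippocampus the same mouse had the highest *Mkrn3* value of the WT group, 28.9 CPM.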

How the results depend on the processing

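The number of members called was 0 for both genotype comparisons and for the interaction under every alternative run, and 2 to 3 between regions. With the mouse as a replicate block, the regional differences were -0.11 for *Snrpn* (adjusted *P* = 0.0127), 0.28 for *Mkrn3* (adjusted *P* = 0.00591) and 0.75 for *Peg12* (adjusted *P* = 0.000308), and the block moved no member across the threshold. *Peg12* between regions kept its call in all alternatives (0.69 to 0.84). Beside the settings given with the results, *Snrpn* between regions missed the threshold without a filter on low counts (adjusted *P* = 0.0524). Over all alternatives, *Magel2* between genotypes in hippocampus had 0.30 to 0.95 (adjusted *P* = 0.288 to 0.999), and *Peg12* in cortex 0.38 to 0.70 (adjusted *P* = 0.673 to 1.00).

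Signs differed for values that did not pass the threshold, and the cause was not tested. *Mkrn3* between genotypes in hippocampus was -0.00505 without TMM factors, -0.00442 with the replicate block, -0.050 without the mice at odds with their labelled sex, -0.091 without the libraries with markers of other tissue, and -0.058 to 0.055 with each mouse left out. Leaving out those libraries also gave 0.029 for *Peg12* between genotypes in hippocampus, and -0.20 for *Magel2* and -0.014 for *Ndn* between regions. With each mouse left out, *Ndn* ranged from -0.022 to 0.087 and *Magel2* from -0.058 to 0.086 between genotypes in cortex, and *Ndn* from -0.029 to 0.024 between regions and from -0.020 to 0.086 for the interaction. At an unadjusted *P* value under 0.05, the exact tests held 1 member between genotypes in hippocampus with and without TMM factors, and 3 and 2 between regions. Depth limits *Peg12* most, with 10 to 53 counts per library.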
